A study of Mus musculus with 12 samples.

Results

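The miR-181 family in the mouse comprises 6 hairpin precursors: Mir181a-1 and Mir181b-1 on chromosome 1, Mir181a-2 and Mir181b-2 on chromosome 2, and Mir181c and Mir181d on chromosome 8. Their rows were taken by symbol from tables of raw read counts per non-coding RNA entry, and they are 6 of 1116 miRNA precursor symbols (1201 entries) among 4529 entries of all classes. Counts were obtained from 12 small RNA libraries of mouse stem-like medulloblastoma cells, for which the labels give cerebellum as the tissue and Math1-Cre; SmoM2 as the genotype of every group. Math1-Cre is active in cerebellar granule neuron precursors, and SmoM2 is an activated form of Smoothened, the transducer of Hedgehog signals, so control cells carry the same tumour driver. The 4 control libraries (replicates 1 to 4) carried the guide sgGal4-4, against a yeast gene, and are labelled WT. The 4 libraries labelled Miat knockdown carried sgMiat-6 (6-1 and 6-2) or sgMiat-96 (96-1 and 96-2), and the 4 labelled Mtdh knockdown carried sgMtdh-1 (1-1 and 1-2) or sgMtdh-2 (2-1 and 2-2). Miat is a nuclear long non-coding RNA and Mtdh encodes the tumour-associated protein metadherin, a partner of the nuclease SND1. Neither the age of the animals, nor the number of tumours, nor whether libraries of one guide came from separate cultures is given in the sources used here, so p-values rest on library-to-library spread that may be technical. In bulk RNA, fewer cells of a type and less RNA per cell cannot be told apart.

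A miRNA is cut from a hairpin in a longer transcript, first by Drosha in the nucleus and then by Dicer in the cytoplasm, and one arm is loaded into Argonaute, where its seed near the 5′ end pairs with target mRNAs. Members of the miR-181 family are known for setting the sensitivity of T cell receptor signalling during lymphocyte development, and they are also expressed in the nervous system, where they act in neuronal differentiation and survival. Each of the clusters pairs hairpins made from a shared primary transcript, and more than one cluster can yield the same mature miRNA.

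The mature sequences are shown first because they set what a count on each hairpin can mean. All of the 5p arms, the arm that is usually loaded, carry one seed, printed in capitals (bases 2 to 8). Sequences and positions are those of RefSeq for GRCm38.p6.
miR-181a (Mir181a-1 and Mir181a-2): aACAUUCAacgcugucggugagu
miR-181b (Mir181b-1 and Mir181b-2): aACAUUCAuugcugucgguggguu
miR-181c (Mir181c): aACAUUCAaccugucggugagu
miR-181d (Mir181d): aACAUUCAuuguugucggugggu
The seed ACAUUCA occurred in 6 of 1738 mature entries of that table, and all 6 belong to these hairpins. The mature miR-181a and miR-181b differed at 3 positions, counted from 1 at the 5′ end with the base of miR-181a first (A9U, C10U and A21G), and miR-181b and miR-181d differed at 1 over the bases they share (C12U). The 5p arms of Mir181a-1 and Mir181a-2 were identical over all 23 bases, and those of Mir181b-1 and Mir181b-2 over all 24. A read of these arms alone therefore cannot be assigned to one locus.

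The opposite arms do differ between loci and are shown with the differing bases in capitals.
miR-181a-1-3p: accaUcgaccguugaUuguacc
miR-181a-2-3p: accaCcgaccguugaCuguacc
miR-181b-1-3p: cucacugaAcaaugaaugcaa
miR-181b-2-3p: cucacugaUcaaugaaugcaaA
The Mir181a copies were separated by U5C and U16C, and the Mir181b copies by A9U and by 1 additional base at the 3′ end of the second. The longest stretch shared by the hairpins of Mir181a-1 and Mir181a-2 was 28 bases and that shared by Mir181b-1 and Mir181b-2 was 26 bases. Both stretches hold the whole 5p arm, in capitals.
Mir181a-1 and Mir181a-2: gAACAUUCAACGCUGUCGGUGAGUuugg
Mir181b-1 and Mir181b-2: ucAACAUUCAUUGCUGUCGGUGGGUU
How reads with several genome positions were treated is not given in the sources used here, and the part of that step in the copy-specific counts below was not tested.

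On GRCm38.p6, Mir181a-1 (NR_029795) lies at chr1:137966455-137966541 and Mir181b-1 (NR_029820) at chr1:137966639-137966718, both on the plus strand with 97 bases between them. Mir181a-2 (NR_029568) lies at chr2:38852735-38852810 and Mir181b-2 (NR_029904) at chr2:38853830-38853918, also on the plus strand and 1019 bases apart. Mir181c (NR_029821) at chr8:84178873-84178961 and Mir181d (NR_030534) at chr8:84178716-84178787 are on the minus strand, 85 bases apart. In the GENCODE annotation, the chromosome 1 pair lies in an intron of the non-coding transcript Gm4258 on the same strand, and Mir181b-1 also lies whole within an exon of the lincRNA A430106G13Rik, which covers Mir181a-1 in part. The chromosome 2 pair lies in an intron of Nr6a1, which is transcribed from the opposite strand, and the chromosome 8 pair lies in an intron of Nanos3 on the same strand. Whether counting used strand is not given in the sources used here.

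Libraries held 23318 to 164537 counts in all and 1015 to 7287 on miRNA precursors, and 270 miRNA symbols had a count in any library. Miat itself was counted 0, 1, 1 and 1 times in controls 1 to 4, 49 and 30 times with sgMiat-6, 1 and 0 times with sgMiat-96 and 0, 0, 2 and 0 times with the Mtdh guides. The sgMiat-6 counts go against the label, although fragments in a small RNA library do not measure a long transcript, so the libraries are named here by label alone. Mtdh is not analysed here. The ribosomal precursor Rn45s took 54.4% ± 1.16 of all counts in control libraries, 73.7% ± 6.06 in those labelled Miat and 70.5% ± 6.28 in those labelled Mtdh (SD, n = 4 each). Of the neural marker list, 6 of 11 RNAs had counts, summing to 73 to 150 in controls, 33 to 195 in Miat and 5 to 86 in Mtdh libraries, with all 3 Mir124a copies at 0. All 4 RNAs of the proliferation list (Mir17hg, Mir17, Mir20a and Mir92-1) had counts, summing to 46 to 88 in controls, 78 to 355 in Miat and 12 to 188 in Mtdh libraries, and their part in the differences below was not tested. Markers of erythrocytes (Mir451a and Mir144) and leukocytes (Mir142, Mir223 and Mir150) were at 0 in every library, and those of endothelium (Mir126a and Mir126b) reached 6 counts at most.

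Mir181a-1, one of the sources of miR-181a, was the most abundant member, with 1257 counts over the 12 libraries. It ranked 6 of the 270 detected miRNA symbols over all libraries, and 4 in the controls. It was counted 119, 132, 132 and 197 times in control libraries 1 to 4. The Miat libraries 6-1, 6-2, 96-1 and 96-2 had 129, 120, 87 and 35 counts, and the Mtdh libraries 1-1, 1-2, 2-1 and 2-2 had 19, 135, 123 and 29. The libraries with the fewest miRNA counts (Mtdh 1-1, Miat 96-2 and Mtdh 2-2) were the lowest, but Mtdh 2-1, with the most miRNA counts, lay within the control range.

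Mir181b-2, a source of miR-181b, came next with 938 counts. Controls 1 to 4 had 54, 88, 96 and 142, the Miat libraries in the same order 132, 66, 108 and 30, and the Mtdh libraries 16, 120, 71 and 15. Mir181b-1, its copy on chromosome 1, had 567 counts. Controls had 45, 43, 55 and 69, the Miat libraries 96, 37, 44 and 33, and the Mtdh libraries 9, 70, 51 and 15. Mir181a-2, the chromosome 2 source of miR-181a, had 523 counts. Controls had 59, 73, 37 and 92, the Miat libraries 45, 45, 58 and 21, and the Mtdh libraries 3, 52, 28 and 10. The count of 3 in Mtdh 1-1 is at the level that a count of 0 would allow, so that library carries little information on Mir181a-2.

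Mir181d, the only further member with counts in more than 1 library, had 55 in all. Controls 1 to 4 had 5, 4, 6 and 5, the Miat libraries 8, 6, 3 and 3, and the Mtdh libraries 0, 6, 9 and 0. Mir181c had 1 count, in Mtdh 2-1. Neither passed the filter on low counts, so 4 of the 6 members were tested. A library with no count allows up to 3 counts, which is 0.127% of the miRNA counts of control 1.

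Levels were compared as CPM, counts per 1000000 counts of the 29 tested miRNAs after TMM scaling, which sets libraries to a common level through the bulk of the miRNAs. Per 100 bases of hairpin, the control level was 49910 ± 4005 CPM for Mir181a-1, 32049 ± 4542 for Mir181b-2, 25734 ± 7293 for Mir181a-2 and 19989 ± 2905 for Mir181b-1 (SD, n = 4). Mir181a-1, at 47394 to 55891, did not overlap Mir181b-2, at 25657 to 35455. The control ranges of the neighbours further down this order did overlap, with Mir181a-2 at 15463 to 31722 and Mir181b-1 at 16790 to 22985.

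In hairpin counts, the leading locus thus differed between the miR-181a and the miR-181b copies. Reads of the identical arms cannot be assigned to a locus, and how they were counted is not known. Which locus supplied more of each mature miRNA was therefore not tested. For miR-181a the chromosome 1 copy had more counts than the chromosome 2 copy in 12 of 12 libraries, by 1.5 to 6.33 times and by 2.40 times over the summed counts. For miR-181b the order was the opposite: the chromosome 2 copy had more counts in 10 of 12 libraries and equal counts in 1, with ratios of 0.909 to 2.45 and of 1.65 over the sums. Within the chromosome 1 pair Mir181a-1 exceeded Mir181b-1 in 12 of 12 libraries. Within the chromosome 2 pair Mir181b-2 exceeded Mir181a-2 in 11 of 12, control 1 being the exception.

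Summed over both hairpins, the chromosome 1 pair held 59.2%, 52.1%, 58.4% and 53.2% of the counts of the 4 hairpins in controls 1 to 4. It held 56.0%, 58.6%, 44.1% and 57.1% in Miat 6-1, 6-2, 96-1 and 96-2, and 59.6%, 54.4%, 63.7% and 63.8% in Mtdh 1-1, 1-2, 2-1 and 2-2. Miat 96-1 was the only library below an even split (95% exact Clopper-Pearson interval 38.4% to 50%, for counting error only). Intervals widened to 44.3% to 73.6% in Mtdh 1-1, where the 4 hairpins had 47 counts.

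**Figure D1:**
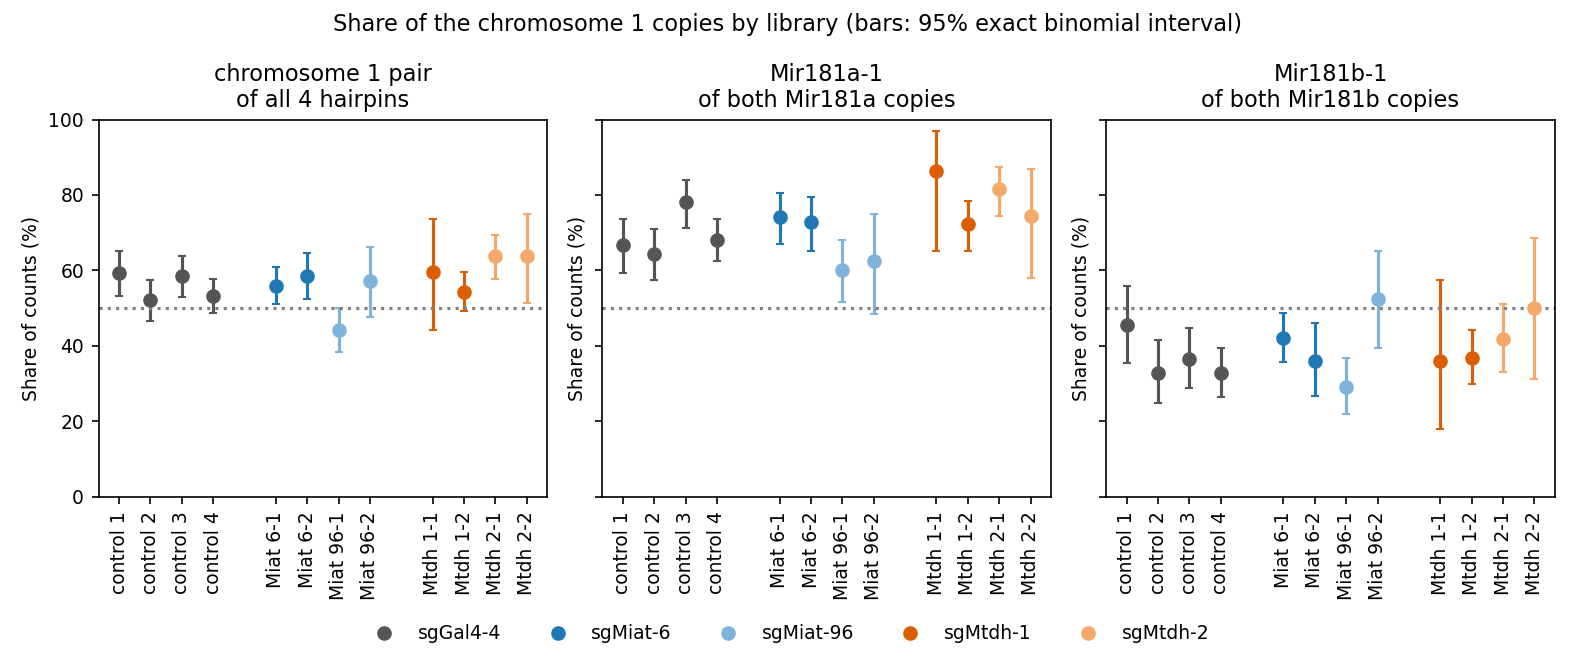
Share of counts (%) from the chromosome 1 copies in each library: the chromosome 1 pair among all 4 hairpins (left), Mir181a-1 among both Mir181a copies (middle) and Mir181b-1 among both Mir181b copies (right). Points are libraries colored by guide, bars are 95% exact intervals and the dotted line marks an even split; Mir181a-1 lies at or above 60% in every library, while Mir181b-1 lies above the line only in Miat 96-2.

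No difference between groups in these shares passed, in a design with little room to pass: with 4 libraries against 4, the smallest exact permutation p is 0.0286, and at least 9 of the 15 share tests would have to reach it for any to pass after Benjamini-Hochberg adjustment. The chromosome 1 share averaged 55.7% ± 3.61 in controls, 54.0% ± 6.65 in Miat and 60.4% ± 4.45 in Mtdh libraries (SD, n = 4). The difference from control was -1.78 percentage points for Miat (exact permutation p = 0.771, adjusted p = 0.827) and 4.63 points for Mtdh (exact permutation p = 0.114, adjusted p = 0.429). Mtdh exceeded Miat by 6.41 points (exact permutation p = 0.171, adjusted p = 0.429). By guide, the summed share was 57.0% with sgMiat-6 (95% exact interval 53.2% to 60.8%) and 47.8% with sgMiat-96 (42.9% to 52.8%), and 55.0% with sgMtdh-1 (50.1% to 59.8%) and 63.7% with sgMtdh-2 (58.4% to 68.8%). With 2 libraries per guide, these were not tested.

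Taken copy by copy, Mir181a-1 held 69.4% ± 6.03 of the Mir181a counts in controls, 67.3% ± 7.13 in Miat and 78.6% ± 6.52 in Mtdh libraries. The Mtdh difference from control was 9.21 points (exact permutation p = 0.0857, adjusted p = 0.429), and control 3, at 78.1%, lay among the Mtdh libraries. The sgMiat-6 libraries had 74.1% and 72.7% and the sgMiat-96 libraries 60% and 62.5%. In this share the libraries of each Miat guide lay close together. The exact intervals of Miat 6-2 (65.3% to 79.4%) and Miat 96-2 (48.5% to 75.1%) still overlapped. The sgMtdh-1 libraries had 86.4% and 72.2% and the sgMtdh-2 libraries 81.5% and 74.4%. Mir181b-1 held 36.9% ± 5.99, 39.8% ± 9.94 and 41.2% ± 6.42 of the Mir181b counts in the same order of groups, with exact permutation p-values of 0.371 to 0.886. Here the sgMiat-96 libraries stood apart from each other, at 28.9% and 52.4%.

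The proportion of the hairpins within a pair was also compared. Mir181a-1 made up 73.2% ± 2.08 of the chromosome 1 pair in controls, 62.9% ± 10.9 in Miat and 67.6% ± 2.27 in Mtdh libraries. The Mtdh difference of -5.58 points had an exact permutation p of 0.0571 and that of Miat, -10.2 points, one of 0.143 (adjusted p = 0.429 each). Mir181a-2 made up 41.2% ± 10.3, 35.5% ± 7.29 and 28.6% ± 9.95 of the chromosome 2 pair. Of the 15 share tests, 0 had an unadjusted exact permutation p below 0.05. Equal shares are not shown by these tests.

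Copies of other multi-copy miRNAs were set beside these as a description. Of 8 multi-copy miRNAs with enough counts, Mir9, Mir7, Mir30c and Mir92 are named here after their values were seen. The 3 copies of Mir9, a miRNA of neural progenitors, were within 5 counts of each other in 12 of 12 libraries, and so were both copies of Mir7. The Mir181a copies were within 5 counts in 0 of 12 libraries and the Mir181b copies in 2 of 12. A gap in counts also depends on depth. Mir7 had 73, 73 and 96 counts in controls, Miat and Mtdh libraries, and Mir181a had 841, 540 and 399. Mir30c, with 32, 72 and 56 counts, was within 5 counts in 9 of 12 libraries. As a share of their counts, gaps summed over libraries were 10.7% for Mir7, 27.5% for Mir30c, 41.2% for Mir181a and 25.0% for Mir181b. The part of depth was not tested. Mir92-1, whose cluster also yields Mir17 and Mir20a, held 85.0% of the Mir92 counts in controls, 87.9% in Miat and 83.7% in Mtdh libraries. The first Mir181a copy held 69.0%, 68.7% and 76.7% of the summed counts and the first Mir181b copy 35.8%, 38.5% and 39.5%. Both patterns thus occur among the multi-copy miRNAs of these tables, near-equal copies and a leading copy.

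**Figure D2:**
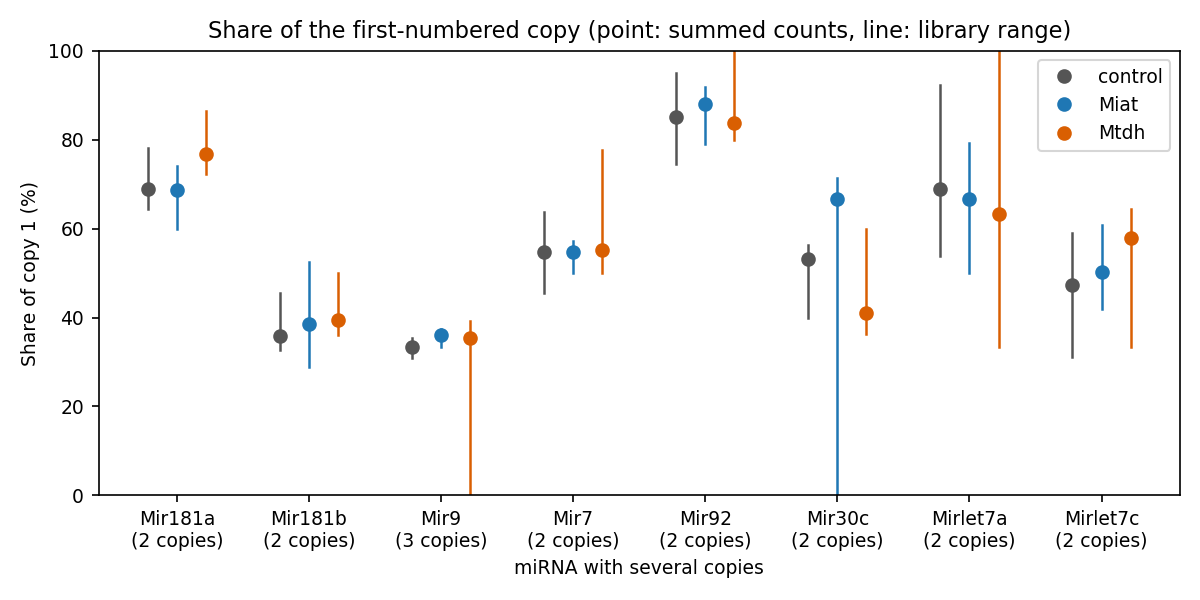
Share (%) of the first-numbered copy in the summed counts of all copies for the 8 multi-copy miRNAs with at least 20 counts in each group. Points are shares of counts summed over a group and lines run from the lowest to the highest library; Mir181a and Mir181b lie on opposite sides of an even split, while Mir7 lies just above it in all groups.

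Comparing Miat with control libraries, Mir181a-1 fell and the other tested members did not pass the test. The level of Mir181a-1 was 48626, 41233, 41925 and 41903 CPM in controls 1 to 4. It was 26155, 30744, 28313 and 18081 CPM in Miat 6-1, 6-2, 96-1 and 96-2. Every Miat library lay below every control, with Miat 96-2 lowest. The log2 fold change was -0.74 (SE 0.21, 95% interval -1.19 to -0.29, edgeR adjusted p = 0.0123), that is 0.599 times the control level. This was 1 of 4 tested members called lower, beside 10.3% of the 29 tested miRNAs called lower and 24.1% called in either direction; 10.3% of the miRNAs had Miat libraries wholly below the controls.

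Mir181a-2 had a log2 fold change of -0.63 against control in Miat libraries (SE 0.31, edgeR adjusted p = 0.158). Its levels were 9124, 11529, 18875 and 10849 CPM in the Miat libraries against 24108, 22803, 11752 and 19569 CPM in the controls, so the groups overlapped through control 3 and Miat 96-1. It passed without control 3 (-1.08, adjusted p = 0.0260), without Miat 96-1 (-1.06, 0.0180) and without sgMiat-96 (-1.27, 0.0172), and with library totals that leave out Mir30d (-1.21, 0.00462). Mir181b-1 was at -0.08 (95% interval -0.63 to 0.46) and Mir181b-2 at -0.22 (-0.79 to 0.35), with edgeR adjusted p-values of 0.906 and 0.717. The interval of Mir181b-2 holds the size of the Mir181a-1 change, and that of Mir181b-1 ends just above it. The median over the 4 members was -0.43, beside -0.08 over all 29 miRNAs, where the median miRNA is Mir181b-1 itself.

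Comparing Mtdh with the same control libraries, Mir181a-2 fell and the other members did not pass. Its level was 4838, 9678, 7122 and 11836 CPM in Mtdh 1-1, 1-2, 2-1 and 2-2. Mtdh 2-2 lay just above control 3, at 11752 CPM, and below the other controls. The log2 fold change was -1.20 (SE 0.34, 95% interval -1.91 to -0.48, edgeR adjusted p = 0.0273), or 0.437 times the control level. Leaving out control 1, 2 or 4 raised the adjusted p to 0.0806, 0.0988 and 0.0648, and leaving out Mtdh 1-1 or 2-1 raised it to 0.0801 and 0.0796, with log2 fold changes of -1.25 to -1.12. Without sgMtdh-1 it was 0.0869 and without sgMtdh-2 0.157. This was 1 of 4 tested members called lower, where 6.9% of the 29 miRNAs were called lower and 24.1% in either direction.

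Mir181a-1 was at 30642, 25125, 31285 and 34325 CPM in the Mtdh libraries, all below the lowest control at 41233 CPM. Its log2 fold change was -0.53 (SE 0.21, edgeR adjusted p = 0.0938), which did not pass with all libraries but did without control 3, Miat 6-1, Miat 96-2 or Mtdh 2-2 (adjusted p = 0.0459, 0.0211, 0.0336 and 0.0383), and 13.8% of the 29 miRNAs had Mtdh libraries wholly below the controls. Mir181b-1 was at -0.16 (edgeR adjusted p = 0.702) and Mir181b-2 at -0.41 (0.274). The median over the 4 members was -0.47, beside -0.15 over all 29 miRNAs. Because both comparisons share the control libraries, including control 1 with the highest Mir181a-1 level, their values for the members are not independent.

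**Figure D3:**
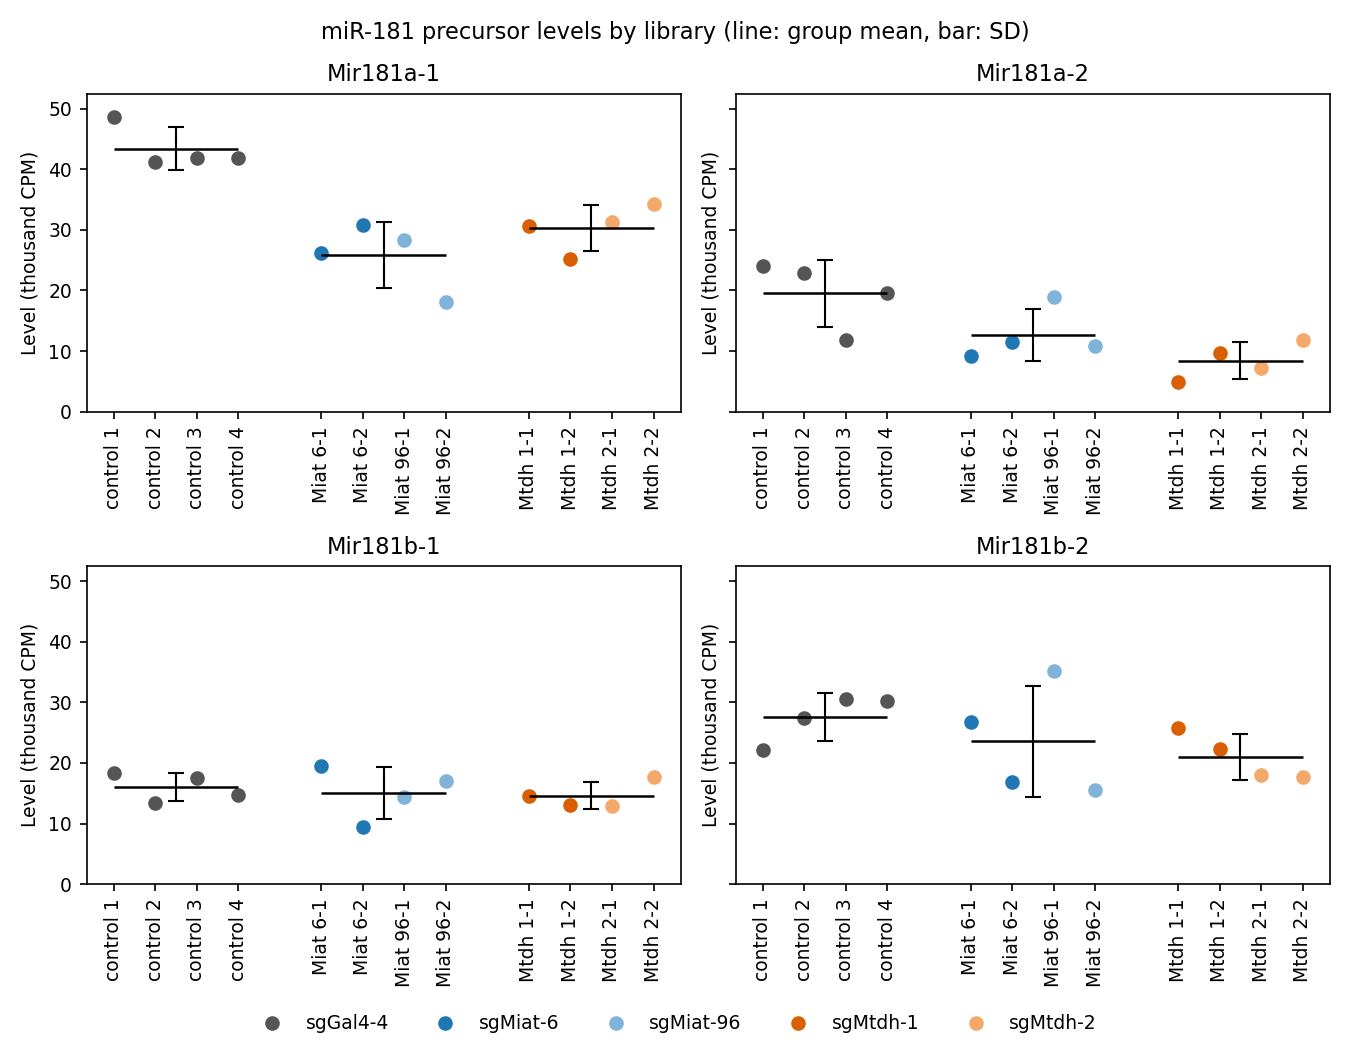
Level of the 4 tested precursors in each library, in CPM divided by 1000 (counts per 1000000 counts of the tested miRNAs after TMM scaling). Points are libraries colored by guide, horizontal lines are group means and bars are SD (n = 4); for Mir181a-1 the controls at 41233 CPM and above lie over all 8 other libraries, while the groups of Mir181b-1 and Mir181b-2 overlap.

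The Mir181a-1 call in Miat libraries held when any 1 of the 12 libraries was left out (-1.06 to -0.76, edgeR adjusted p of 0.00328 to 0.0164). The value with all libraries, -0.74, lay outside that range. Each of these fits repeated the filter and the scaling and tested 31 to 42 miRNAs in place of 29. The part of a single library was therefore not separated from that of the tested set. Both calls depended on how the guides, the filter and Rn45s were handled. With guide as a random effect in limma-voom, neither passed: Mir181a-1 in Miat libraries was at -0.75 (adjusted p = 0.0729) and Mir181a-2 in Mtdh libraries at -1.13 (adjusted p = 0.128). With no filter on low counts, where 270 miRNAs were tested, edgeR gave -1.01 (adjusted p = 0.240) and -1.51 (adjusted p = 0.0909). The Rn45s share did not overlap between the controls, at 53.0% to 55.4%, and the other libraries, at 63.7% to 82.7%, so the share and the guides cannot be told apart. With the Rn45s share as a covariate, edgeR gave -0.09 for Mir181a-1 in Miat (adjusted p = 0.960) and -0.83 for Mir181a-2 in Mtdh libraries (adjusted p = 0.660).

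Between Mtdh and Miat libraries, edgeR called 0 of the 4 members, with 0 at an unadjusted p below 0.05 and 0 by DESeq2, where 6.9% of the 29 miRNAs were called. The log2 difference of Mtdh from Miat was 0.21 for Mir181a-1 (95% interval -0.25 to 0.67), -0.56 for Mir181a-2 (-1.28 to 0.16), -0.08 for Mir181b-1 (-0.65 to 0.49) and -0.19 for Mir181b-2 (-0.78 to 0.40). With library totals, which moved the median of all 29 miRNAs to -0.89 in this comparison, 3 of the 4 members passed as lower in Mtdh libraries, where 14 of the 29 miRNAs were called in either direction. So a fall of Mir181a-1 with Miat guides and of Mir181a-2 with Mtdh guides is not shown to be a difference between the targets.

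Each guide was also compared with the controls. The Mir181a-1 estimate was -0.61 for sgMiat-6 (edgeR adjusted p = 0.0660), -0.89 for sgMiat-96 (0.0125), -0.68 for sgMtdh-1 (0.0663) and, lastly, -0.41 for sgMtdh-2 (0.197). The Mir181a-2 estimate was -0.92 for sgMiat-6 (edgeR adjusted p = 0.0671), -0.37 for sgMiat-96 (0.418), -1.22 for sgMtdh-1 (0.0470) and -1.16 for sgMtdh-2 (0.0571). Of the 4 members, Mir181a-1 was thus called lower with sgMiat-96 and Mir181a-2 with sgMtdh-1, where 10.3% and 6.9% of all 29 miRNAs were called lower. The first call was lost without control 2 (adjusted p = 0.0512). The second was lost without control 1, 2 or 4, Miat 6-2, Mtdh 1-1 or Mtdh 1-2 (adjusted p = 0.103, 0.120, 0.0812, 0.0606, 0.134 and 0.0640), the estimate being -2.19 without Mtdh 1-2. With sgMiat-6 and sgMtdh-2, 0 members were called by edgeR and 0 by DESeq2, although 2 and 1 members had unadjusted p-values below 0.05, where 10.3% and 3.45% of the miRNAs were called lower. With 1 library left out, however, the sgMiat-6 estimate passed in 10 of 12 fits for Mir181a-1 (-1.03 to -0.56) and in 8 of 12 for Mir181a-2 (-1.40 to -0.82). For Mir181a-1 the exceptions were control 4 (adjusted p = 0.0532) and Miat 6-1 (0.121), and for Mir181a-2 they were control 1 (0.0916), control 4 (0.0642), Miat 6-1 (0.160) and Miat 6-2 (0.135). Libraries outside the comparison were among those left out, and each fit repeated the filter and the scaling over 31 to 42 miRNAs. With all 12 libraries and a filter at a mean of 5 counts (45 miRNAs), both also passed. Mir181a-1 was then at -0.87 (edgeR adjusted p = 0.0145) and Mir181a-2 at -1.19 (0.0381). The part of the filter and the scaling in these passes was not tested. The sgMtdh-2 estimate of Mir181a-2 passed without control 3 (adjusted p = 0.0253), Miat 6-1 (0.0249) or Miat 96-1 (0.0461), and that of Mir181a-1 without Miat 6-1 (-0.60, 0.0446). With DESeq2 size factors, Mir181a-1 and Mir181a-2 passed with sgMiat-6 (edgeR adjusted p = 0.0214 and 0.0360) and Mir181a-2 with sgMtdh-2 (0.0431).

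For Mir181b-1 and Mir181b-2 no guide passed. Mir181b-1 ranged from -0.24 with sgMtdh-1 to -0.03 with sgMiat-96, and Mir181b-2 from -0.62 with sgMtdh-2 to -0.10 with sgMiat-96. The guides of one target were compared as well. For sgMiat-96 against sgMiat-6, edgeR called 0 of 4 members (0 at an unadjusted p below 0.05, 0 by DESeq2), with estimates from -0.28 for Mir181a-1 to 0.55 for Mir181a-2, where 6.9% of all miRNAs were called. Between the Mtdh guides (sgMtdh-2 against sgMtdh-1) estimates ran from -0.39 for Mir181b-2 to 0.26 for Mir181a-1, and 0 of the 29 miRNAs (0%) were called by edgeR, 5 having an unadjusted p below 0.05, and 0 by DESeq2.

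**Figure D4:**
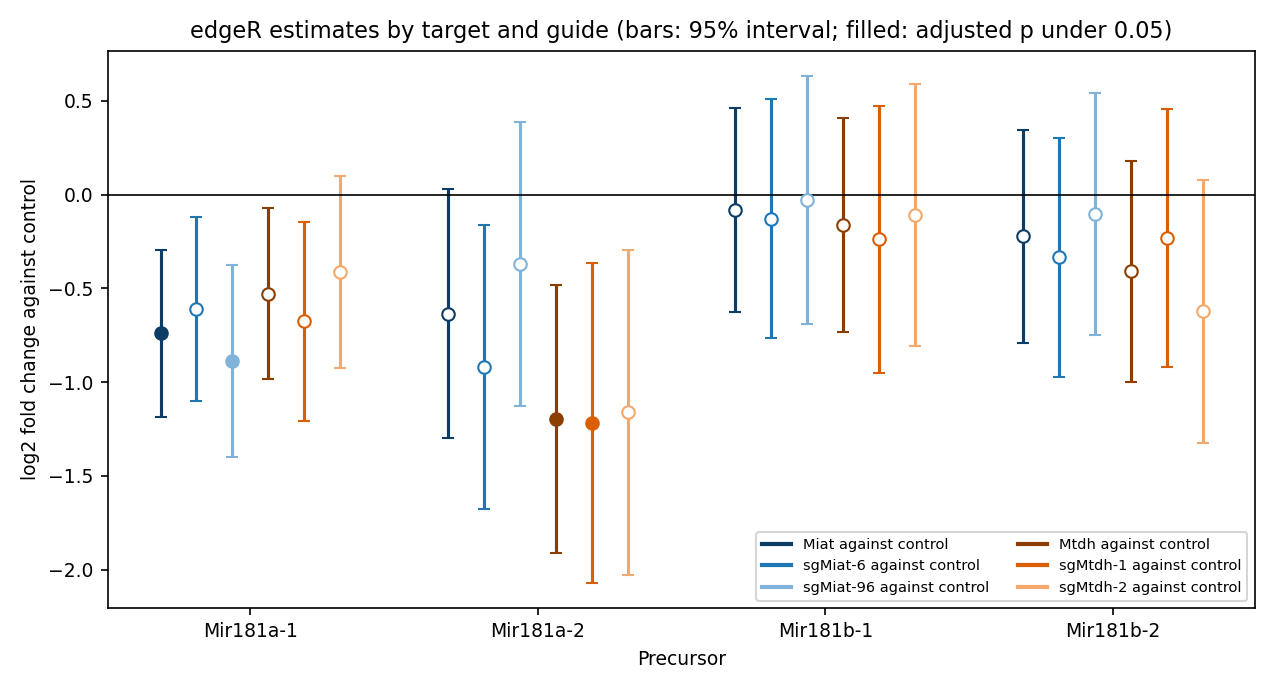
edgeR log2 fold change against control for the 4 tested precursors, for each target (dark) and each of its guides (lighter), with 95% intervals. Filled points have an adjusted p under 0.05: Mir181a-1 with Miat guides together (-0.74) and sgMiat-96 (-0.89), and Mir181a-2 with Mtdh guides together (-1.20) and sgMtdh-1 (-1.22).

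Because the 5p arms of the copies are identical, counts were also summed by mature miRNA, which does not depend on how reads are divided between loci. The sum would still depend on whether shared reads were dropped or were counted at each locus, which is not known here. In this fit of 24 miRNAs, Mir181a fell with the guides of both targets. The log2 fold change was -1.02 in Miat (SE 0.22, edgeR adjusted p = 0.00145) and -0.99 in Mtdh libraries (SE 0.22, adjusted p = 0.00532), beside medians over the 24 miRNAs of -0.29 and -0.10. Of the 24, 12.5% were called lower in Miat and 8.33% in Mtdh libraries. The Miat value lay below those of both copies (-0.74 and -0.63), and the TMM factors had been recomputed over the 24: relative to the unsummed fit, the effective library sizes were 0.831 to 0.946 times as large in controls and 0.952 to 1.23 times in the other libraries. With the scaling factors of the unsummed fit, an alternative chosen after seeing the data, summed Mir181a was at -0.71 in Miat (SE 0.22, edgeR adjusted p = 0.0208) and -0.71 in Mtdh libraries (SE 0.23, adjusted p = 0.0342), beside medians of 0.02 and 0.17, and 12.5% and 8.33% were again called lower. Under the new factors summed Mir181a stood at 56737 to 82997 CPM in controls, 30404 to 40709 CPM in Miat and 28775 to 43736 CPM in Mtdh libraries. Under those of the unsummed fit it stood at 53677 to 72734, 28930 to 47188 and 34803 to 46161 CPM. Under either scaling the controls overlapped neither group, and under the new factors 20.8% of the 24 lay wholly below the controls in each comparison. That share was not counted under the factors of the unsummed fit. With the new factors the fall also passed for each guide alone, at -1.04 for sgMiat-6 (edgeR adjusted p = 0.00306), -1 for sgMiat-96 (0.00948), -1.15 for sgMtdh-1 (0.00765) and -0.85 for sgMtdh-2 (0.0380), where 16.7%, 12.5%, 8.33% and 8.33% were called lower.

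The summed calls were also lost in some fits with 1 library or guide left out, in alternatives chosen after the data were seen. Each such fit repeated the filter and the scaling, and some of the libraries left out were outside the comparison. A lost call therefore does not show that it rested on the library left out. In Miat libraries the fall of Mir181a did not pass without control 2 (adjusted p = 0.0661), control 4 (0.0850), Miat 6-1 (0.0600), Miat 96-2 (0.0943) or Mtdh 2-1 (0.0693), with log2 fold changes of -0.92, -0.91, -0.73, -0.73 and -0.87, and without sgMiat-96 (-0.80, 0.198). In Mtdh libraries it did not pass without control 1 (adjusted p = 0.0742), control 2 (0.118), control 4 (0.128), Miat 96-1 (0.0956), Mtdh 1-1 (0.0702) or Mtdh 2-1 (0.113), with log2 fold changes of -1.01 to -0.87, nor without sgMtdh-1 (-0.66, 0.202) or sgMiat-96 (-1.02, 0.0967). With the Rn45s share as a covariate the values were -0.76 in each comparison (adjusted p = 0.378 and 0.436), and with library totals the Miat value was -0.48 (adjusted p = 0.263). With no filter on low counts the values were -0.70 (adjusted p = 0.473) and -1.07 (adjusted p = 0.573). With guide as a random effect the Miat call stayed (-1, limma-voom adjusted p = 0.0167), while the Mtdh value was -0.99 (adjusted p = 0.0543). The estimates stayed below 0 in all of these fits.

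Summed Mir181b was at -0.47 in Miat (SE 0.23, edgeR adjusted p = 0.120) and -0.59 in Mtdh libraries (SE 0.23, adjusted p = 0.0850), and did not pass. It did pass in 2 of 13 alternatives for each comparison, and in 0 of 12 fits with 1 library left out. With upper-quartile factors it was at -0.80 in Miat (edgeR adjusted p = 0.00850) and -0.94 in Mtdh libraries (0.00530). It also passed in Miat libraries with totals without Mir30d (-0.72, 0.0274) and in Mtdh libraries without sgMiat-6 (-0.96, 0.00551). With library totals it was at 0.05 in Miat libraries. With the scaling factors of the unsummed fit it was at -0.17 (edgeR adjusted p = 0.719) and -0.30 (adjusted p = 0.367). Its levels were then 40453 to 47960 CPM in controls, 26388 to 49466 CPM in Miat and 31031 to 40318 CPM in Mtdh libraries, so the Miat libraries overlapped the controls and Miat 96-1 lay above all of them, while the Mtdh libraries lay below them. Under the new factors its levels were 46161 to 51347 CPM in controls, 23485 to 42674 CPM in Miat and 29720 to 35384 CPM in Mtdh libraries. Neither group then overlapped the controls, where 20.8% of the 24 miRNAs lay wholly below the controls in each comparison. For the factors of the unsummed fit, where the Mtdh libraries lay just below the controls, that share was not counted. The difference in change between Mir181a and Mir181b was not tested in these fits.

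The place of the whole family among the miRNAs depended on Mir30d, an abundant miRNA of another family. All 6 precursors together held 10.8% ± 0.966 of miRNA counts in controls, 9.22% ± 0.888 in Miat and 4.87% ± 1.54 in Mtdh libraries (SD, n = 4). Without Mir30d in the total, the shares were 23.3% ± 1.41, 11.7% ± 1.47 and 13.3% ± 0.717. Controls then lay between 22% and 24.8%, Miat libraries between 10% and 13.5% and Mtdh libraries between 12.7% and 13.9%, so that both groups were about equally far below the controls. That total also holds abundant miRNAs whose levels moved. Mean levels in controls, Miat and Mtdh libraries were 93418, 213828 and 87984 CPM for Mir6538. They were 18145, 75012 and 60962 CPM for Mir677, and 20129, 62202 and 42970 CPM for Mir6236. Of the 29 tested miRNAs, 24.1% were called in either direction in each comparison, with 10.3% lower in Miat and 6.9% in Mtdh libraries. The part of such miRNAs in these shares was not tested. As a share of all counts outside Rn45s the family held 1.68% ± 0.140, 0.920% ± 0.198 and 0.739% ± 0.198.

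**Figure D5:**
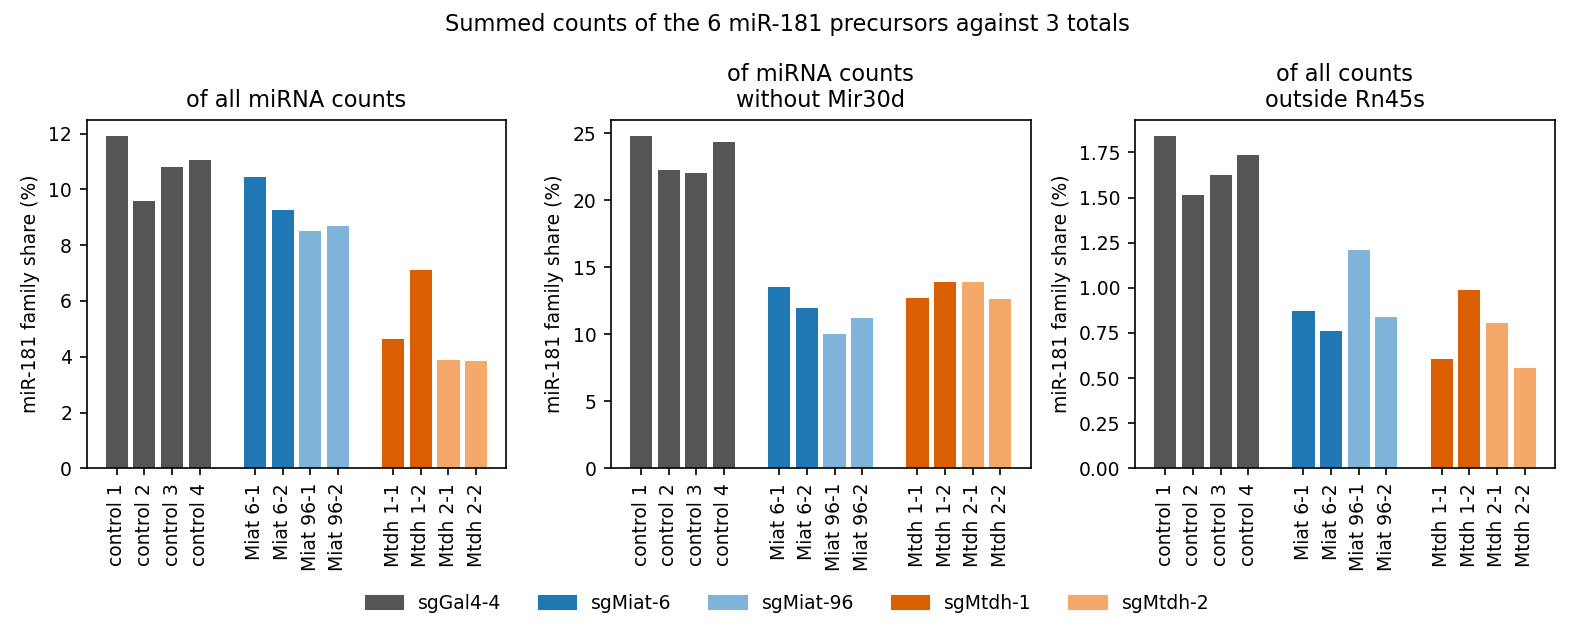
Summed counts of the 6 miR-181 precursors in each library as a share (%) of all miRNA counts (left), of miRNA counts without Mir30d (middle) and of all counts outside Rn45s (right). Bars are libraries colored by guide; the controls exceed all other libraries in the middle panel (22% and above against 13.9% and below) and the right panel, but not in the left one.

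Scaling moved every member's fold change together with those of the other miRNAs. Over 6 scalings, the median change of all miRNAs tested ran from -0.60 (library totals without Mir30d) to 0.16 (library totals) in Miat libraries and from -0.61 (library totals) to -0.15 (TMM) in Mtdh libraries. Relative to that median, Mir181a-1 lay between -0.67 and -0.65 in Miat libraries and between -0.57 and -0.36 in Mtdh libraries. Mir181a-2 lay between -0.61 and -0.54 and between -1.14 and -1.02. Mir181b-1 stayed within -0.01 to 0.02 of the median in Miat libraries, but with TMM it is itself the median miRNA, so that distance carries no information. Because scaling shifts the miRNAs of a fit nearly alike, these distances had little room to change. The fold change of Mir181b-1 itself flipped to 0.17 with library totals. Mir181a-1 in Miat libraries no longer passed with library totals (-0.50, edgeR adjusted p = 0.303), and in Mtdh libraries it did pass with library totals (-1.17, 0.0147), library totals without Mir30d (-0.80, 0.0348), upper-quartile factors (-0.75, 0.0425) and all RNA classes tested together (-1.04, 0.0452).

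The miR-181 changes were set against 40 other miRNAs of neural progenitors and neuronal differentiation, of which 27 had counts and 12 were tested. In Miat libraries 0 of the 12 rose and 1 fell, and in Mtdh libraries likewise 0 rose and 1 fell, while between Mtdh and Miat libraries 0 passed. Of all 29 tested miRNAs, 10.3% were called lower in Miat and 6.9% in Mtdh libraries, and 24.1% in either direction in each. Between Mtdh and Miat libraries 6.9% were called. The 1 of the 12 that fell was Mir92b, a miRNA of neural progenitors, at -2.25 in Miat (SE 0.53, edgeR adjusted p = 0.00431) and -1.68 in Mtdh libraries (SE 0.54, adjusted p = 0.0366). The abundant Mirlet7b, Mir9-1, Mir9-3 and Mir9-2 lay between -0.34 and -0.07 in Miat and between -0.94 and 0.27 in Mtdh libraries, and none of them passed. The median over the 12 was -0.17 in Miat and -0.42 in Mtdh libraries, beside -0.43 and -0.47 over the 4 miR-181 members.

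Across the 12 libraries the members did not all vary together. The Spearman correlation of log2 CPM was 0.63 between Mir181a-1 and Mir181a-2, which share a mature sequence but lie on different chromosomes, and 0.21 between Mir181a-1 and its neighbour Mir181b-1. Mir181a-2 and Mir181b-2 had 0.29, and Mir181b-1 and Mir181b-2 had 0.12. The miRNAs most like Mir181a-1 among the 25 other tested miRNAs were Mir92b (0.65), Mir9-2 (0.58) and Mir99b (0.57). For Mir181b-1 they were all copies of Mir9: Mir9-3 (0.69), Mir9-2 (0.64) and Mir9-1 (0.54). Mir181a-2 was most like Mirlet7c-2 (0.69), Mir351 (0.64) and Mir92b (0.59), and Mir181b-2 was most like Mir92b (0.65), Mir351 (0.41) and Mirlet7c-2 (0.40). These values describe 12 libraries that share depth, scaling and group differences.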

How the data were processed

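Small RNA counts were compared in 12 libraries of 3 groups of 4, grouped by their labels. Per the file headers, each deposited table lists a raw count for every RefSeq non-coding RNA, with FPKM and TPM values beside it. FPKM and TPM, which the authors derived, were used only to recover entry lengths (FPKM) or not at all (TPM). Per the submitters' processing notes, reads were aligned with STAR to GRCm38 (mm10). Tool versions, trimming, the counting tool and its handling of strand and multi-position reads were not stated. Per the labels' protocols, total RNA was purified with a Qiagen RNeasy kit. Whether its small RNA protocol was used is not stated, which bears on how much mature miRNA the libraries hold.

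The members and lists were chosen with earlier results of these data known. Counts of miRNA entries with one symbol were summed and tested with edgeR 4.0.16 in R 4.3.3: filterByExpr (10 counts, total of 15) kept testable miRNAs, TMM gave factors of 0.523 to 1.62, and the quasi-likelihood model held group terms for all 12 libraries, or guide terms for guide contrasts. Common dispersion was 0.139. This left 29 miRNAs, holding 85.0% to 94.4% of miRNA counts. Tests were two-sided with Benjamini-Hochberg adjustment within a contrast at 0.05. The 3 counts that a 0 leaves possible equalled 558 to 4838 CPM. The fit was tested on simulated data with a dispersion of 0.05, below that of these libraries, and with no guide effect. That test therefore does not give the rate of false calls here. Shares were tested on library means by exact permutation (two-sided), adjusted over 15 tests. Intervals (95%, exact Clopper-Pearson) and limits for 0 cover counting error only. By rule, the 6 members were named, with the 3 tested miRNAs of highest Spearman correlation to each and, of the neural list, those past the threshold and the 4 most abundant others. Libraries of one guide differed beyond counting noise (chi-squared p of 0.00704 at most). Deviations of libraries with the same last number did not correlate (mean r -0.007 over 16 pairs, 0.004 over 32 other pairs), so numbers were not taken as pairs. Alternatives were other scalings and filters, DESeq2 1.42.0, limma-voom (limma 3.58.1), summed copies, a replicate block, the Rn45s share as a covariate, and each library or guide left out; those for summed copies were added after seeing the data. Python 3.11.15, pandas 2.3.3, scipy 1.17.1 and matplotlib 3.10.9 were used for shares and plots.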

Additional observations from a re-analysis of the deposited data

Results flagged for a closer look

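In the controls, Mir181a-1 in library 1 stood apart from the other control libraries, at 48626 CPM against 41233 to 41925 CPM, a gap that took 0.906 of the range of the 4 libraries and exceeded Dixon's limit. It was 1 of 39 groups of values screened in this way, and chance flags about 5% of groups. Without control 1, Mir181a-1 still fell in Miat libraries (-0.86, edgeR adjusted p = 0.0164).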

How the results depend on the processing

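Each choice was changed one at a time. Beside main values of 1 member called in Miat and in Mtdh libraries, 0 were called in either comparison with the replicate block (Mir181a-1 in Miat -0.79, adjusted p = 0.0943; Mir181a-2 in Mtdh -1.47, adjusted p = 0.0589), no filter, the Rn45s covariate or guide as a random effect. Miat also had 0 with library totals, 3 with totals without Mir30d and 2 without sgMiat-96. Mtdh also had 0 with a mean of 5 counts or without sgMtdh-1 or sgMtdh-2, and 2 with upper-quartile factors, either kind of totals, all classes, one term per guide or without sgMiat-6. Mtdh against Miat went from 0 to 3 with library totals, where 14 of all 29 miRNAs were called. By guide, sgMiat-6 (0) had 2 with DESeq2 size factors, all classes, a mean of 5 counts or without sgMtdh-1, and 3 with totals without Mir30d or without sgMiat-96. For sgMiat-96 (1) there were 3 with totals without Mir30d and 0 with no filter. For sgMtdh-1 (1) there were 2 with DESeq2 size factors, upper-quartile factors, either kind of totals, all classes or without sgMiat-6, and 0 with no filter, a mean of 5 counts or without sgMiat-96 or sgMtdh-2. For sgMtdh-2 (0) there were 1 with DESeq2 size factors or all classes, 4 with library totals and 3 with totals without Mir30d, and sgMtdh-2 against sgMtdh-1 (0) had 1 with library totals. Leaving out 1 library gave 1 to 2 for Miat, 0 to 2 for Mtdh, sgMiat-6, sgMtdh-1 and sgMtdh-2, and 0 to 1 for sgMiat-96.

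Over all miRNAs tested, Miat had 7 calls of 29 and 20 of 143 with all classes, 3 with the replicate block and 2 with the Rn45s covariate. Mtdh had 7, 14, 1 and 0. With no filter the calls were 5 and 0 of 270 in Miat and Mtdh, and with guide as a random effect 5 and 2 of 29. Miat had 9 of 29 with library totals and 10 of 44 without sgMiat-96. Mtdh had 6 of 29 with upper-quartile factors, 5 with either kind of totals and 10 with one term per guide. It had 4 of 45 with a mean of 5 counts, 4 of 40 without sgMiat-6, 4 of 47 without sgMtdh-1 and 3 of 47 without sgMtdh-2. With library totals, 13 of 29 were called for sgMtdh-2 and 7 for sgMtdh-2 against sgMtdh-1. Calls for sgMtdh-1 were 1 of 270 with no filter, 4 of 45 with a mean of 5 counts and 7 of 40 without sgMiat-6. They were 3 of 44 without sgMiat-96 and 5 of 47 without sgMtdh-2. Those for sgMiat-96 were 3 of 270 with no filter. With totals without Mir30d, 10 of 29 were called in Miat, 10 for sgMiat-6, 15 for sgMiat-96 and 7 for sgMtdh-2. For sgMiat-6 (main fit 7 of 29) there were 9 with DESeq2 size factors and 37 of 143 with all classes. There were 11 of 45 with a mean of 5 counts, 12 of 47 without sgMtdh-1 and 14 of 44 without sgMiat-96. For sgMtdh-1 (5 of 29) there were 7 with DESeq2 size factors or either kind of totals, 10 with upper-quartile factors and 18 of 143 with all classes. For sgMtdh-2 (5 of 29) there were 6 with DESeq2 size factors and 21 of 143 with all classes.

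These log2 values changed sign, none past the threshold. With library totals, Mir181b-1 was 0.17 in Miat, 0.22 for sgMiat-6 and 0.11 for sgMiat-96, while Mir181b-2 was 0.020 for sgMiat-6. Mir181a-1 was -0.67 for Mtdh against Miat. For sgMiat-96 against sgMiat-6, Mir181b-1 was -0.11 and Mir181b-2 -0.091, and for sgMtdh-2 against sgMtdh-1 the values were -0.44 (Mir181a-1), -0.74 (Mir181a-2) and -0.61 (Mir181b-1). Summed Mir181b was 0.048 in Miat. With totals without Mir30d, Mtdh against Miat gave 0.15 (Mir181b-1) and 0.13 (Mir181b-2), sgMiat-96 against sgMiat-6 -0.17 for both, and sgMtdh-2 against sgMtdh-1 -0.037 (Mir181a-2). With the Rn45s covariate, Mir181b-2 was 0.54 in Miat and 0.30 in Mtdh, and Mir181a-1 0.070 in Mtdh. With copies summed, Mir181a was 0.030 for Mtdh against Miat and 0.035 for sgMiat-96 against sgMiat-6, and Mir181b -0.13 for sgMtdh-2 against sgMtdh-1. For Mtdh against Miat, values were 0.031, 0.29 and 0.24 (Mir181a-2, Mir181b-1 and Mir181b-2) without sgMiat-96, 0.11 and 0.0075 (Mir181b-1 and Mir181b-2) with a mean of 5 counts, 0.11 (Mir181b-1) without sgMtdh-1 and 0.050 (Mir181b-2) without sgMtdh-2. Mir181b-1 was 0.012 with sgMtdh-2 at a mean of 5 counts. For sgMtdh-2 against sgMtdh-1, Mir181a-2 was -0.049 with all classes and -0.19 with no filter, where Mir181b-1 was -0.067.

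With 1 library left out, Mir181b-1 ran from -0.37 to 0.0076 in Miat, -0.81 to 0.14 with sgMiat-6, -0.21 to 0.12 for Mtdh against Miat and -0.21 to 0.71 for sgMiat-96 against sgMiat-6. Mir181b-2 ran from -0.96 to 0.20 with sgMiat-96, -0.29 to 0.11 for Mtdh against Miat and -0.46 to 0.67 for sgMiat-96 against sgMiat-6. Mir181a-2 ran from -0.014 to 1.07 for sgMtdh-2 against sgMtdh-1.

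Share differences from control also changed sign without passing. Without sgMiat-96 those of Miat were 1.54 points (chromosome 1 pair) and 4.05 points (Mir181a-1). Without sgMtdh-2 those of Mir181b-1 were -0.43 in Mtdh and -3.42 for Mtdh against Miat. With 1 library left out, Miat ran from -3.32 to 1.5 (chromosome 1 pair), -4.30 to 0.871 (Mir181a-1) and -1.19 to 6.62 points (Mir181b-1), and Mtdh against Miat from -2.31 to 5.50 (Mir181b-1).

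The causes were not tested, except that fewer or more miRNAs enter the fit with another filter or library set. Depth limits the smallest libraries most: Mtdh 1-1 had 47 family counts.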
